A study of Mus musculus with 2 samples.

Results

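The Wnt genes described here are 44 mouse genes chosen by their roles, although earlier results of these data were known. The set holds 16 Wnt ligands, 11 Frizzled and Lrp receptors, 5 R-spondin ligands and Lgr receptors, and 7 secreted inhibitors (Dkk, Sfrp and Wif1). It also holds 5 nuclear effectors and targets (Ctnnb1, Lef1, Tcf7l1, Tcf7l2 and Axin2). These 44 are among the 21631 protein-coding genes on the chromosomes with loops. A loop was given to a gene when an end of the gene (RefSeq, GRCm38) lay inside a loop anchor or within 5 kb of it. By this rule the Wnt genes held 106 of the 24131 loops listed in estrus and 104 of the 26240 listed in diestrus.

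The study mapped chromatin contacts by Hi-C, which counts pairs of genomic positions that lie close together in the nucleus, in the uterus across the estrous cycle. The estrus library (labelled CoE) and the diestrus library (labelled CoD) each came from uteri of intact, untreated CD-1 mice, an outbred stock, aged 2 months. There was 1 library per stage, so no difference has a replicate check, no test of stage was possible and every interval covers counting error only. The labels do not say how many animals entered each library. The lists hold contacts and no expression, so the tissue could not be checked against marker genes. Tissue was whole uterus: fewer cells with a loop and a weaker loop per cell cannot be told apart.

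Wnt proteins are secreted, lipid-modified ligands that bind Frizzled receptors with Lrp5 or Lrp6 as co-receptors. In the canonical branch this stops the destruction of beta-catenin (Ctnnb1), which then joins Lef1 and Tcf7l1 or Tcf7l2 on target genes such as Axin2. R-spondins, through Lgr receptors, keep Frizzled receptors on the cell surface. By contrast, Dkk1 blocks the Lrp co-receptors, and Sfrp proteins and Wif1 bind the ligands themselves. In the mouse uterus, Wnt7a is made by the luminal epithelium and is needed for gland formation and patterning of the tract. Wnt4 serves duct formation in the embryo and decidualization of the stroma in the adult, and Wnt2 and Wnt16 are ligands of stroma or mesenchyme. Below, Wnt4 and Wnt7a are grouped as epithelial and Wnt2 and Wnt16 as stromal, labels that lists without expression could not check.

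Promoters of 6 Wnt genes are shown because the loops described below start at or near them. They are the epithelial genes Wnt4 and Wnt7a, the stromal gene Wnt16, Wnt1 (loops listed in estrus alone), Fzd1 (every paired loop weaker in estrus) and Fzd7, the member with matches to 2 of the motifs searched. Each is the stretch of up to 250 bases before the RefSeq start site (GRCm38.p6), 5′ to 3′ on the gene's own strand, and capitals mark motif matches on either strand. That of Wnt16 is shorter because its first listed start lies inside the gene as mapped. They were Wnt4 at chr4:137277385-137277634 (plus strand), Wnt7a at chr6:91411354-91411603 (minus strand), Wnt16 at chr6:22287977-22288177 (plus strand), Wnt1 at chr15:98789607-98789856 (plus strand), Fzd1 at chr5:4758217-4758466 (minus strand) and Fzd7 at chr1:59481897-59482146 (plus strand).
Wnt4: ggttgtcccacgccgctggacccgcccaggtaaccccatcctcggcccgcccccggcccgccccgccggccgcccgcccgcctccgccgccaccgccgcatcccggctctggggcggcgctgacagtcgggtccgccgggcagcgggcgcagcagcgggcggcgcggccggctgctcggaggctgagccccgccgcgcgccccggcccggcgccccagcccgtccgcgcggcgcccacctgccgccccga
Wnt7a: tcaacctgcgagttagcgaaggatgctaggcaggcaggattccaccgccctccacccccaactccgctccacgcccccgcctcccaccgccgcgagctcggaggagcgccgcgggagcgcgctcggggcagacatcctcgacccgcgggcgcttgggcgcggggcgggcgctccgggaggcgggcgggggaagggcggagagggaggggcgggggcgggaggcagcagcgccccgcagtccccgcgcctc
Wnt16: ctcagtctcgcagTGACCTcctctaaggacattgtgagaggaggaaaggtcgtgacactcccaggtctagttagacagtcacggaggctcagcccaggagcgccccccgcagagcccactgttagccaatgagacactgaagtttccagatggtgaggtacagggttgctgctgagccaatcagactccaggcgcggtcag
Wnt1: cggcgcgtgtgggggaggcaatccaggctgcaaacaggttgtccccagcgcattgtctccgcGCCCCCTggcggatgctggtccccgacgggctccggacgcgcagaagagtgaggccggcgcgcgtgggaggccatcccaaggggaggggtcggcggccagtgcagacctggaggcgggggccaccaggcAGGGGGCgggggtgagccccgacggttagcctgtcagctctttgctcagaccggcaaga
Fzd1: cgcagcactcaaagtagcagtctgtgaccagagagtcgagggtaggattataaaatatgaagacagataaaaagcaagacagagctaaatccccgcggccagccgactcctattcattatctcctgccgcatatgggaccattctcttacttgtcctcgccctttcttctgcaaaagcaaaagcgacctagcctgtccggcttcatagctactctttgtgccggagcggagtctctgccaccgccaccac
Fzd7: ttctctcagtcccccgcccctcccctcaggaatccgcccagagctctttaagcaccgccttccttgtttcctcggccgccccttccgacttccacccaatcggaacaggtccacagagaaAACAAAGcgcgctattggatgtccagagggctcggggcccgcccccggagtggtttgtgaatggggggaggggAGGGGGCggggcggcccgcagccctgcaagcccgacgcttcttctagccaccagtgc

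Motifs were searched on both strands in these windows. The TCF/LEF motif (CTTTGAT or CTTTGTT), the kind of site that beta-catenin's partners bind, was present in 3 of the 26 looped members with a listed promoter (Fzd7, Wnt11 and Dkk1), which is 11.5%, against 5.89% of the promoters of looped protein-coding genes and 8.04% of all 27025 promoters. The CTCF core AGGGGGC, part of the motif of the protein found at many loop anchors, was present in 6 of the 26 (Wnt1, Wnt2, Fzd4, Fzd5, Fzd7 and Tcf7l2), or 23.1%, against 14.3% of looped genes and 9.29% of all. No member held the full palindromic estrogen response element, which 0.0629% of all promoters held. A single arm of it, AGGTCA, which overlaps the full element, was present in Wnt16 alone (3.85%, against 13.8% of all promoters). In the sequences above, Wnt16 thus shows 1 such arm, Wnt1 shows 2 CTCF cores, Fzd7 shows 1 TCF/LEF match and 1 CTCF core, and Wnt4, Wnt7a and Fzd1 show none. These matches describe letters in the windows and say nothing of binding.

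At least 1 loop was listed in either stage for 35 of the 44 members (79.5%), against 55.7% of all protein-coding genes. The other 9 had none: the ligands Wnt9b, Wnt10a and Wnt10b, the receptors Fzd2, Fzd10, Lrp6 and Lgr5, and the secreted regulators Rspo1 and Dkk3. Absence from a list means only that the caller reported no loop there, since contacts at uncalled positions are not listed. The distance rule decided some of these: the farthest gene end counted was that of Lrp5, 4825 bases from its anchor, and the nearest not counted was that of Wnt9b, at 5272 bases.

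Over the looped members, loop numbers were close between the stages. The sums of 106 loops in estrus and 104 in diestrus have a ratio of 1.02, against 0.954 over all protein-coding genes. More loops in estrus were listed for 12 members (34.3% of those with a loop, against a background of 25.6%), more in diestrus for 10 (28.6%, background 31.5%), and equal numbers for 13 (background 42.9%). Both for the members and for all looped genes the median difference was 0. The sum was not stable in sign: with only loops whose q-values were at or under 0.00991 it was 6 lower in estrus than in diestrus.

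A difference of at least 2 loops favoured estrus for 5 of the 35 members with a loop, against a background of 4.29%. These were Wnt1, Wnt2, Fzd6, Rspo2 and Tcf7l2. It favoured diestrus for 4 of the 35 (Wnt11, Fzd8, Sfrp2 and Axin2), against a background of 7.11%. Both shares lie above the background, which was not matched for the number of loops per gene. Loops in estrus alone were listed for 3 of the 35, Wnt1, Wnt2 and Fzd6 (background 8.72%), and loops in diestrus alone for 0 (background 11.2%).

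**Figure D1:**
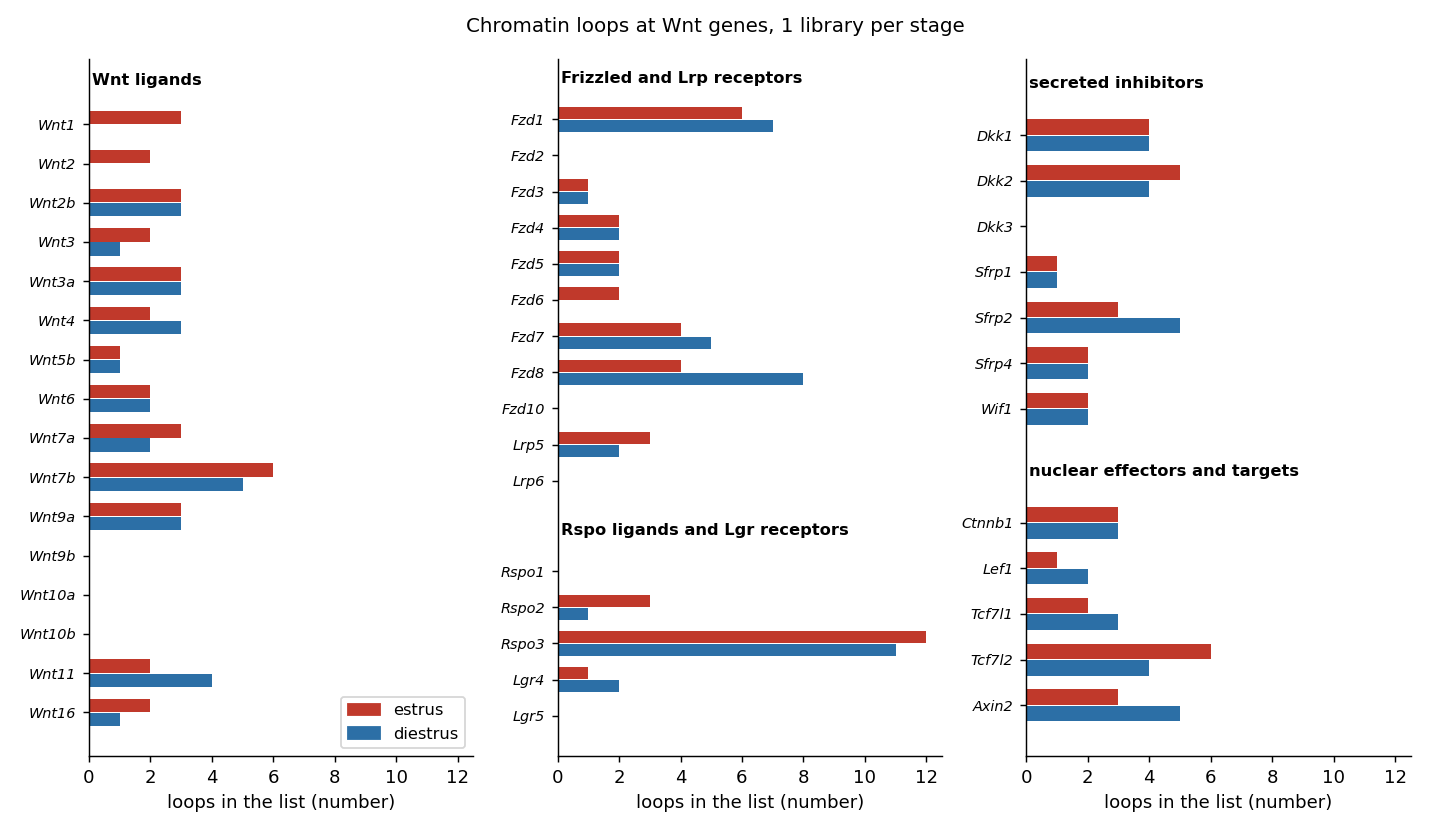
Loops listed at each of the 44 Wnt genes (number of loops, linear axis) in the estrus and diestrus libraries, 1 library each, grouped by role. Rspo3 had the most loops in both stages (12 in estrus and 11 in diestrus), Fzd8 had 4 in estrus and 8 in diestrus, and 9 genes had none in either stage.

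Most loops recurred. A loop was counted as found in the other stage when that stage's list held a loop whose anchors each lay across a gap of at most 10 kb from their counterparts, edge to edge, which lets their starts differ by up to 20 kb. This was so for 80 of 106 estrus loops, or 75.5% (Clopper-Pearson 95% interval 66.2% to 83.3%), against 80.8% of all estrus loops. It was so for 80 of 104 diestrus loops, or 76.9% (67.6% to 84.6%), against 74.4% of all diestrus loops. Loops that were not found in the other stage were weaker in strength, which is the number of contacts over the number expected from the ring of pixels around the loop (the donut). Their median strength was 2.30 in estrus (26 loops) and 2.47 in diestrus (24 loops), whereas the loops found in the other stage had medians of 3.61 in estrus and 3.65 in diestrus. No member loop seen in a single stage exceeded a strength of 3.17 in estrus or 3.96 in diestrus. All loops of the lists had the same order, with medians of 2.57 in estrus and 2.56 in diestrus where not found in the other stage, and 3.74 and 3.68 where found.

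**Figure D2:**
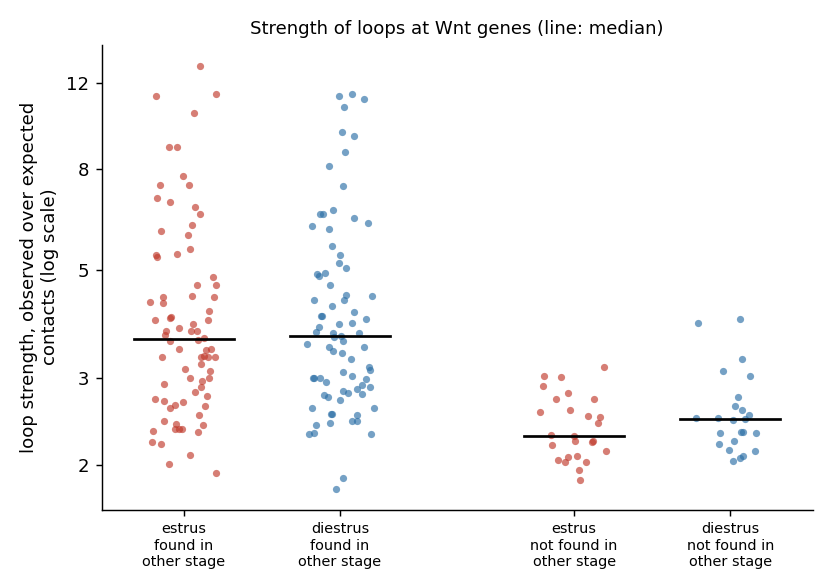
Strength of each loop at a Wnt gene (contacts over donut expectation, logarithmic axis), split by stage and by whether the loop was found in the other stage; the line is the median. Loops not found in the other stage had medians of 2.30 in estrus and 2.47 in diestrus, below the medians of 3.61 and 3.65 of the loops found in both.

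The epithelial ligands Wnt4 and Wnt7a had strong loops that recurred in both stages. Together they had 5 loops in each stage, with a median strength of 5.51 in estrus and 5.04 in diestrus. In each stage 4 were found in the other, near the share over all loops (80.8% in estrus and 74.4% in diestrus). The stromal ligands Wnt2 and Wnt16 had 4 loops in estrus and 1 in diestrus, none found in the other stage, and all were weak (2.20 to 2.80 in estrus and 2.24 in diestrus). With 2 genes a side and 1 library a stage, these are values of 4 loci and not a difference between cell types. Wnt5a, another ligand of the stroma outside the list, had 12 loops in each stage.

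Wnt7a held the strongest loop of all members. It joined chr6:91280001-91290000 to the anchor at the Wnt7a start site, chr6:91410001-91420000, over 130 kb. It had 737 contacts (exact Poisson 95% interval 685 to 792) at a strength of 13.0 in estrus, and 633 contacts (585 to 684) at a strength of 11.4 in diestrus. For loops paired between the stages, log2 ratios of strength (estrus over diestrus) were centred, so that the median of all 19399 pairs in the lists is 0. The ratio of this loop was 0.17 (95% counting interval 0.02 to 0.33), a small excess in estrus. A 250 kb loop from the same start site anchor had 101 contacts in estrus and 91 in diestrus, with strengths of 5.51 and 5.04 and a log2 ratio of 0.11 (-0.31 to 0.54). Another loop, of 70 kb and at the other end of the gene, was listed in estrus alone, with 118 contacts and a strength of 2.09. All Wnt7a loops ran toward lower coordinates.

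At Wnt4 the paired loops went opposite ways. The 120 kb loop reached an anchor at chr4:137280001-137290000, whose edge is 2366 bases from the start site. It had 354 contacts (318 to 393) and a strength of 5.29 in estrus, against 275 contacts (243 to 309) and a strength of 4.09 in diestrus, a log2 ratio of 0.35 (0.12 to 0.59). The 230 kb loop, near the far end of the gene, had 285 contacts (253 to 320) and a strength of 6.49 in estrus, against 368 (331 to 408) and 7.41 in diestrus, a log2 ratio of -0.21 (-0.44 to 0.02). Only the interval of the 120 kb loop left out 0. A 380 kb loop from the start site anchor was listed in diestrus alone, with 41 contacts (29.4 to 55.6) and a strength of 2.49. Both ends of Wnt4 lay just outside their anchors, so with gene ends required inside an anchor Wnt4 had 0 loops and the epithelial ligands had 3 in estrus and 2 in diestrus.

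The ligands Wnt7b and Wnt11, also made by uterine epithelium, were set beside these as a wider list of 4 genes. The list had 13 loops in estrus and 14 in diestrus. In each stage 11 were found in the other (80.8% of all estrus and 74.4% of all diestrus loops were). Of its 11 paired loops 3 were weaker and 8 stronger in estrus, with a median log2 ratio of 0.12. Wnt7b, a ligand of the canonical branch in several epithelia, had 6 loops in estrus and 5 in diestrus. Its strongest, over 270 kb, hardly differed, with 254 contacts (strength 10.4) in estrus and 268 (10.7) in diestrus. Its 110 kb loop had 338 contacts (303 to 376) in estrus and 250 (220 to 283) in diestrus, a log2 ratio of 0.34 (0.10 to 0.58). The remaining Wnt7b loop of estrus, over 50 kb, joined the ends of the gene itself and had 237 contacts at a strength of 2.56.

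Wnt11, a ligand mostly of the non-canonical branch, was the epithelial gene with the larger loop difference, 2 loops in estrus and 4 in diestrus. Its loops of 90 kb and 240 kb were in both lists, with 276 and 213 contacts in estrus and 273 and 258 in diestrus. The diestrus list added a 50 kb loop with 305 contacts at a strength of 2.09 and a 350 kb loop with 69 contacts at 2.53, which reached Lrrc32. Both added loops were weaker than the pair found in both stages, whose strengths were 3.57 and 4.0 in estrus and 3.09 and 3.72 in diestrus.

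Wnt2, which signals in mesenchyme, had loops in estrus and none in diestrus. One joined chr6:17930001-17940000 to chr6:17980001-17990000 over 50 kb, with 151 contacts (128 to 177) and a strength of 2.20. The other ran 90 kb the opposite way from the same anchor, with 99 contacts (80.5 to 121) and a strength of 2.24. That anchor holds the end of the gene away from its listed start site, and the nearest diestrus loops were 90 kb and 60 kb away. Wnt16 had loops of 190 kb (122 contacts, strength 2.80) and 150 kb (135 contacts, 2.44) in estrus, and of 80 kb (192 contacts, 2.24) in diestrus. The 150 kb and 80 kb loops shared the start site anchor, chr6:22280001-22290000, but ran to different partners.

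**Figure D3:**
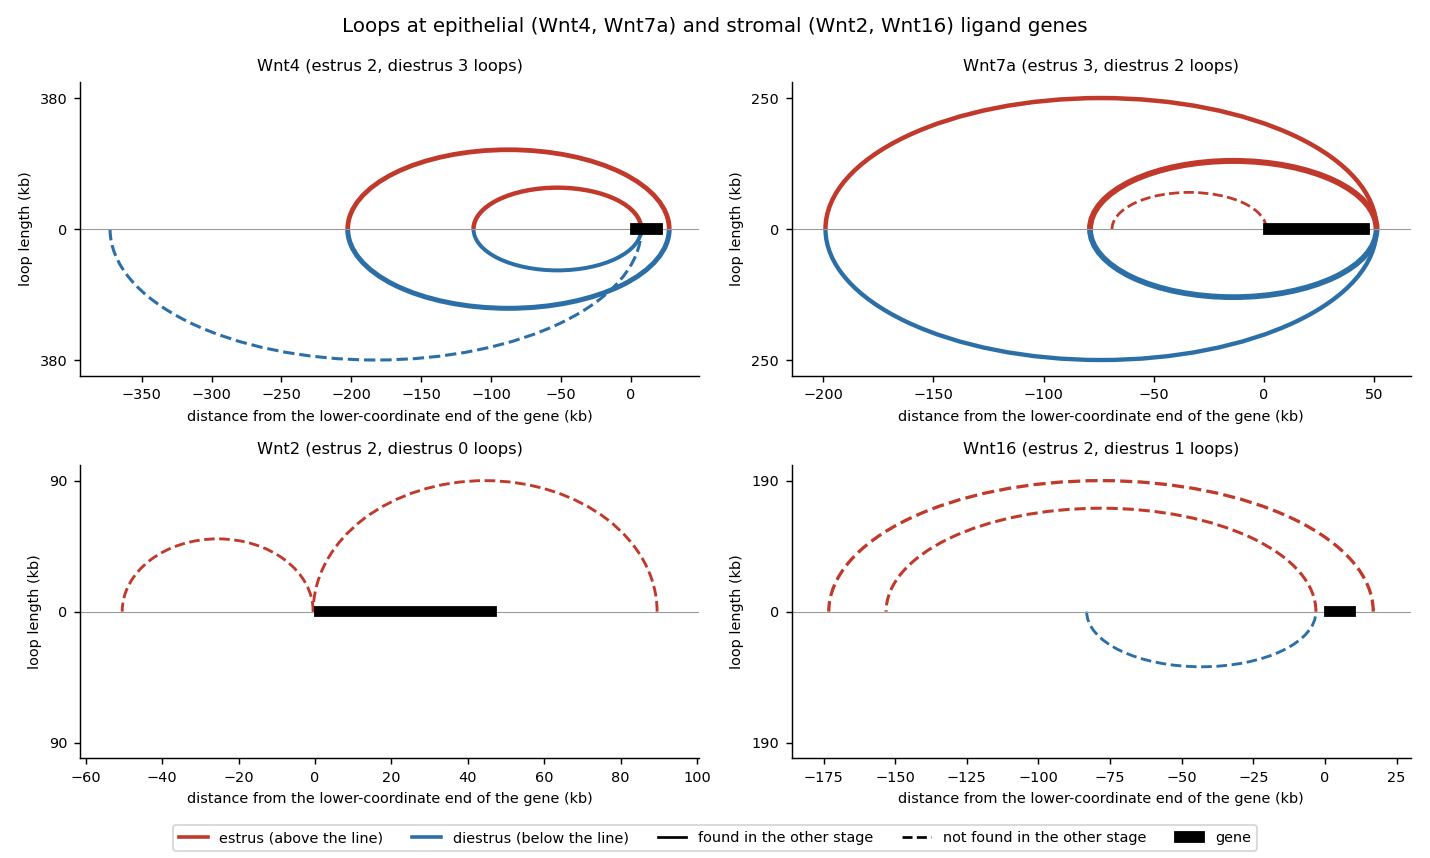
Loops at Wnt4, Wnt7a, Wnt2 and Wnt16, with estrus above the line and diestrus below (x axis, distance from the lower-coordinate end of the gene in kb; y axis, loop length in kb). Wider arcs are stronger, dashed arcs were not found in the other stage and the box is the gene: Wnt4 and Wnt7a each share a pair of solid arcs between the stages, whereas all arcs of Wnt2 and Wnt16 are dashed.

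Among all 16 Wnt ligands, 13 had a loop, with 34 loops in estrus and 28 in diestrus. Loops were more numerous in estrus for 6 of the 13 (background 25.6%), in diestrus for 2 (31.5%) and equal for 5 (42.9%). The 24 pairs split into 9 weaker and 15 stronger in estrus, with a median log2 ratio of 0.05. The share found in the other stage was 70.6% in estrus and 82.1% in diestrus, against 80.8% and 74.4% over all loops.

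Wnt1, best known for patterning the midbrain, had the largest difference among the ligands, 3 loops in estrus and 0 in diestrus, but the rule's distance decided part of it. Its 130 kb loop to the anchor of Ddx23 and Rnd1 had 250 contacts (strength 3.95) in estrus. The diestrus list held the matching loop 1 bin farther on, over 140 kb, with 259 contacts (strength 3.79, log2 ratio 0.04), and that bin lay 6171 bases from the gene. The others, over 280 kb to Kansl2 (39 contacts, strength 2.89) and over 70 kb to Ccdc65 and Fkbp11 (194 contacts, strength 1.86), had no counterpart in diestrus. With gene ends up to 10 kb from an anchor, Wnt1 had 3 loops in estrus and 2 in diestrus.

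Several ligand genes lie in neighbouring pairs. Wnt1 had loops while its neighbour Wnt10b had none, and Wnt6 had 2 in each stage while Wnt10a had none. Wnt3 had 2 loops in estrus and 1 in diestrus while Wnt9b had none, a contrast that rests on the distance rule: within 10 kb both genes had 2 in estrus and 1 in diestrus, and with ends inside an anchor only both had 0. Counting gene bodies inside an anchor, Wnt9b had 3 in estrus and 2 in diestrus while Wnt3 had 0. Wnt3a and Wnt9a, neighbours on chromosome 11, had 3 loops each in each stage. Those of Wnt3a all ran to lower coordinates and those of Wnt9a all to higher ones, away from each other. No loop joined a pair of members.

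Stable loops included some of the strongest of the list. Wnt3, a canonical ligand, had a 150 kb loop with 455 contacts at a strength of 11.3 in estrus and 457 at 11.1 in diestrus. At Wnt9a a 180 kb loop to Zkscan17 had 586 contacts at a strength of 11.4 in estrus and 604 at 11.3 in diestrus. These log2 ratios were 0.01 and 0.00. By contrast, the 100 kb loop of Wnt2b had 182 contacts (157 to 210) in estrus and 287 (255 to 322) in diestrus, a log2 ratio of -0.39 (-0.66 to -0.11). The shorter loop of Wnt6 had 209 contacts in estrus, over 110 kb, and 241 in diestrus, over 90 kb, with far anchors whose starts differ by 20 kb. Contacts were thus fewer in estrus, but those expected were 60.8 in estrus and 95.1 in diestrus. The strengths were 3.44 and 2.54, a log2 ratio of 0.42 (0.15 to 0.70) that rests on the expected contacts.

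The Frizzled and Lrp receptors had 24 loops in estrus and 27 in diestrus, at 8 of the 11 genes. Of the 8, loops were more numerous in estrus for 2 (background 25.6%), in diestrus for 3 (31.5%) and equal for 3 (42.9%). Of their 19 paired loops 14 were weaker and 5 stronger in estrus, with a median log2 ratio of -0.12. Of the 14 weaker pairs, 6 were at Fzd1 and shared an anchor. No ratio had an interval wholly above 0 and 2 had one wholly below, both at Fzd1.

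Every paired loop of Fzd1, a receptor for canonical Wnt ligands, was weaker in estrus. Its 6 pairs shared the anchor at the start site, chr5:4750001-4760000, and so are not independent. The ratios ran from -0.52 to -0.12 on the log2 scale. The 220 kb loop had 138 contacts (116 to 163) in estrus and 211 (183 to 241) in diestrus, with strengths of 2.23 and 2.85. The loop of 430 kb in estrus and 440 kb in diestrus had 136 contacts (114 to 161) in estrus and 197 (170 to 227) in diestrus, with strengths of 2.37 and 3.38. Summed over the 6 pairs, Fzd1 had 883 contacts in estrus against 316 expected, and 1233 in diestrus against 359 expected, which are strengths of 2.80 and 3.43 and a log2 ratio of -0.31 (-0.44 to -0.19). Diestrus also listed a 100 kb loop with 266 contacts at a strength of 2.33. Members with at least 3 pairs numbered 12, and all pairs were weaker in estrus for 3 of them (Fzd1, Dkk2 and Sfrp2), against 9.25% of all such genes, and stronger for 1 (Axin2), against 11.1%. This count was chosen after the values were seen.

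Fzd8, a Frizzled receptor gene on chromosome 18 with long loops, had 4 loops in estrus and 8 in diestrus. Its loops of 1190 kb (151 contacts in estrus, 187 in diestrus) and 320 kb (92 in estrus, 80 in diestrus) were in both lists, as was that of 1230 kb in estrus (106 contacts) and 1240 kb in diestrus (133 contacts). The 5 loops listed in diestrus alone spanned 240 kb to 1110 kb, with 46 to 96 contacts and strengths from 2.47 to 3.28, the 240 kb loop reaching Ccny. The single loop of estrus alone spanned 190 kb, with 78 contacts at 2.05. The Fzd8 loops present in 1 list thus had few contacts, all under 100.

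Fzd6, a receptor of the planar polarity branch, had 2 loops in estrus and 0 in diestrus. Both spanned 70 kb, to opposite sides: the loop to Baalc had 234 contacts at a strength of 2.03 and the loop to Cthrc1 had 153 at 2.08. Among the receptors, Fzd4 held the strongest loop, over 250 kb, with 471 contacts at 6.71 in estrus and 468 at 6.62 in diestrus. Fzd7, whose promoter is shown above, held the loop with most contacts in diestrus, over 100 kb, with 384 contacts at 3.21 in estrus and 481 at 3.57 in diestrus. A 280 kb loop joining Fzd7 to Bmpr2, a BMP receptor gene, was listed in diestrus alone with 36 contacts at 2.33. Fzd3, Fzd5 and Lrp5 had 1 to 3 loops per stage.

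The R-spondins and Lgr receptors had 16 loops in estrus and 14 in diestrus, at 3 of the 5 genes. The median length was 570 kb in estrus and 645 kb in diestrus, against 230 kb and 250 kb over all members, but Rspo3 held 12 of the loops in estrus and 11 in diestrus, and those of Lgr4 spanned 50 to 110 kb. Of 13 pairs, 8 were weaker and 5 stronger in estrus.

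All loops of Rspo3, an R-spondin, ran toward higher coordinates, from anchors at either end of the gene, over 170 kb to 1280 kb. In estrus 10 started from chr10:29530001-29540000 and 2 from chr10:29450001-29460000. The 270 kb loop was the most contacted member loop of this class in estrus, with 446 contacts at 7.0 in estrus and 456 at 6.50 in diestrus. The 880 kb loop had 423 contacts (384 to 465) at 7.43 in estrus and 580 (534 to 629) at 8.66 in diestrus, a log2 ratio of -0.24 (-0.42 to -0.05). Both loops were well above the median of all listed loops, 125 contacts in each stage.

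The 470 kb loop of Rspo3 was the single paired loop of any member past 1.5-fold. It had 142 contacts (120 to 167) at a strength of 3.32 in estrus, and 266 (235 to 300) at 5.16 in diestrus, a log2 ratio of -0.65 (-0.95 to -0.35). Over all pairs 1.64% were past 1.5-fold toward estrus and 1.56% toward diestrus, so 1 of 81 is near the background. Its far anchor, chr10:30000001-30010000, held no protein-coding gene end within 5 kb. The 1050 kb loop went the other way, with 90 contacts (72.4 to 111) in estrus and 80 (63.4 to 99.6) in diestrus. Against 22.6 and 28.6 expected, its strengths were 3.98 and 2.80, a log2 ratio of 0.49 (0.04 to 0.95). Summed over the 10 pairs, Rspo3 had 1671 contacts in estrus and 2025 in diestrus, a log2 ratio of -0.14 (-0.23 to -0.05). This sum includes the 470 kb loop, and its value without that loop was not computed. Of the 10 pairs 6 were weaker and 4 stronger in estrus, and most share an anchor and so are not independent. Few far anchors of Rspo3 held an end of a protein-coding gene inside them. The genes were Cenpw at 670 kb (estrus alone, 64 contacts), Trmt11 at 1000 kb in both stages and Ncoa7 at 1270 kb in estrus.

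Rspo2, also an R-spondin, had 3 loops in estrus and 1 in diestrus, all thin. Those of estrus spanned 200, 370 and 590 kb with 62, 62 and 43 contacts, and that of diestrus spanned 360 kb with 69. The 200 kb loop had a diestrus counterpart of 190 kb with 73 contacts, at a bin outside the distance rule, and with gene ends required inside an anchor Rspo2 had 0 loops in estrus and 1 in diestrus. Lgr4, a receptor for R-spondins, had 1 loop in estrus and 2 in diestrus. Lgr5, a receptor of epithelial stem and gland cells, had none, its nearest listed anchor being 10314 bases away in estrus and 22221 bases away in diestrus.

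**Figure D4:**
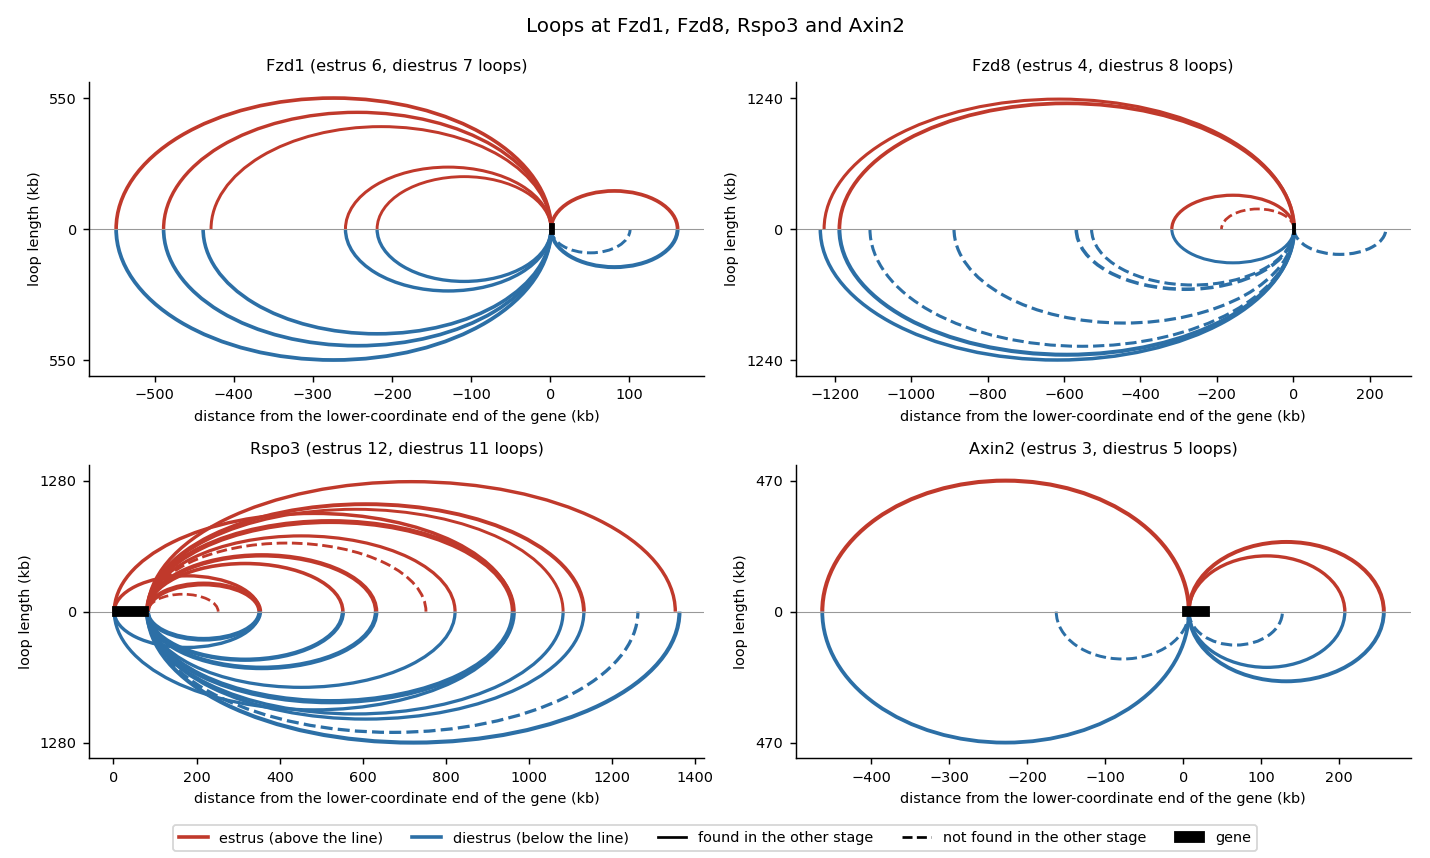
Loops at Fzd1, Fzd8, Rspo3 and Axin2, drawn as for the ligands (estrus above, diestrus below; x axis, distance from the lower-coordinate end of the gene in kb; y axis, loop length in kb; wider arcs stronger; dashed arcs not found in the other stage). Fzd8 has 5 dashed arcs in diestrus and 1 in estrus, and all 12 estrus and 11 diestrus arcs of Rspo3 run to the same side.

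The secreted inhibitors had 17 loops in estrus and 18 in diestrus, at 6 of the 7 genes. Of 14 pairs 12 were weaker and 2 stronger in estrus, with a median log2 ratio of -0.09. The 12 included 4 pairs from a shared anchor at Dkk2 and 3 from a shared anchor at Sfrp2. All but 1 of the 14 ratios had an interval that held 0. The exception was the 220 kb loop of Wif1, with 180 contacts (155 to 208) in estrus and 149 (126 to 175) in diestrus, a log2 ratio of 0.33 (0.01 to 0.66).

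Dkk1, which blocks Lrp co-receptors, held the strongest loop of the inhibitors. This 310 kb loop had 380 contacts at 8.87 in estrus and 406 at 9.35 in diestrus. Dkk1 had 4 loops in each stage, of which a 1210 kb loop to Prkg1 (51 contacts, 2.29) was listed in estrus alone and a 130 kb loop (136 contacts, 3.03) in diestrus alone. Dkk2, of the same family, had 4 pairs, all weaker in estrus, with 398 contacts in estrus and 520 in diestrus in sum and a log2 ratio of -0.18 (-0.37 to 0.01). Sfrp2, a decoy for Wnt ligands, had 3 loops in estrus and 5 in diestrus. Its strongest, over 480 kb, had 232 contacts at 7.43 in estrus and 308 at 8.13 in diestrus. The loops of Sfrp2 listed in diestrus alone spanned 770 kb (35 contacts, 3.90) and 60 kb (225 contacts, 2.04). Sfrp1, Sfrp4 and Wif1 had equal numbers of loops in the stages, 1 or 2 each.

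The nuclear effectors and targets had 15 loops in estrus and 17 in diestrus, and all 5 genes had a loop. Of 11 pairs 4 were weaker and 7 stronger in estrus, with a median log2 ratio of 0.03, and no interval left out 0. The share found in the other stage was 66.7% in estrus and 64.7% in diestrus, against 80.8% and 74.4% over all loops.

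Axin2, a feedback inhibitor widely read as a target of canonical signalling, had 3 loops in estrus and 5 in diestrus. Its 250 kb loop had 370 contacts at 4.12 in estrus and 395 at 3.97 in diestrus. Its 470 kb loop had 163 contacts at 4.4 in estrus and 182 at 3.73 in diestrus, a log2 ratio of 0.22 (-0.09 to 0.53). These and the 200 kb loop were close between the stages, all 3 ratios being at or above 0.03. The loops of diestrus alone spanned 170 kb (199 contacts, 2.32) and 120 kb (262 contacts, 2.48). All Axin2 loops used an anchor whose edge is 2173 bases from the start of the gene, so with gene ends required inside an anchor Axin2 had 0 loops in both stages.

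Lef1, a DNA-binding partner of beta-catenin, had 1 loop in estrus and 2 in diestrus. That of estrus joined the ends of the gene over 120 kb, with 93 contacts at 2.30. Those of diestrus spanned 300 kb (165 contacts, 2.13) and 340 kb (119 contacts, 2.32), and the longer had a counterpart of 350 kb with 119 contacts in estrus at a bin outside the distance rule. With gene ends up to 10 kb from an anchor, Lef1 had 5 loops in estrus and 4 in diestrus, so the direction of its difference rests on the distance chosen.

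Tcf7l2, another such partner, had 6 loops in estrus and 4 in diestrus, but only 2 were in both lists. These, of 130 kb and 510 kb, had 268 and 49 contacts in estrus and 345 and 63 in diestrus. In estrus alone 4 loops were listed, of 90 to 410 kb with 57 to 244 contacts and strengths of 1.95 to 2.59. In diestrus alone 2 were listed, of 200 kb (114 contacts, 2.07) and 390 kb (125 contacts, 3.10). All used the anchor of the Tcf7l2 start site, chr19:55740001-55750000. The rule counts only loops near a gene end, and with any base inside an anchor there were 9 in estrus and 8 in diestrus. Most of the listed partners differed, but contacts at positions absent from a list are not given, so a switch of partners is not shown. Ctnnb1, beta-catenin itself, had 3 loops in each stage, all found in both, of which the strongest had 220 contacts at 3.75 in estrus and 227 at 4.02 in diestrus. Tcf7l1, mostly a repressor, had 2 loops in estrus and 3 in diestrus, its 520 kb loop with 33 contacts at 3.96 being listed in diestrus alone.

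Strength at the paired loops changed little over the members as a whole. There were 81 pairs, 72 of them at the same bins, and 47 were weaker and 34 stronger in estrus, with ratios from -0.65 to 0.49 on the log2 scale. The median was -0.04 (95% interval of the median -0.11 to 0.01), against 0 by construction over all pairs. Intervals wholly above 0 were found for 6 pairs (7.41%, against 6.36% of all pairs) and wholly below 0 for 5 (6.17%, against 6.98%). The 6 were at Wnt4, Wnt6, Wnt7a, Wnt7b, Rspo3 and Wif1, and the 5 at Wnt2b, Fzd1 (2 pairs) and Rspo3 (2 pairs).

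**Figure D5:**
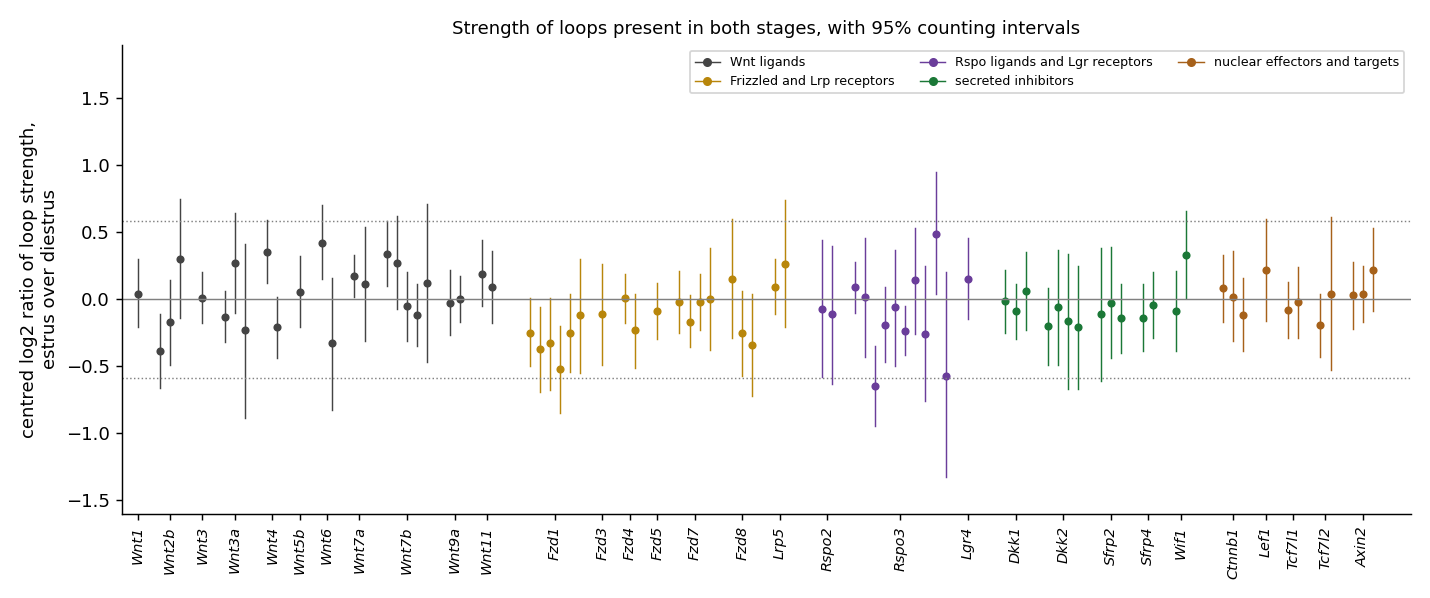
Strength of each paired loop of a Wnt gene in estrus and in diestrus, drawn as the centred log2 ratio of estrus over diestrus with its 95% counting interval, by gene and coloured by role; dotted lines mark 1.5-fold. Of 81 pairs, 1 lies past 1.5-fold, the 470 kb loop of Rspo3 at -0.65. Most receptor pairs (median -0.12) and inhibitor pairs (median -0.09) lie below 0, but pairs of a gene often share an anchor. Of the 14 receptor pairs below 0, 6 are at the start site anchor of Fzd1, and no inhibitor pair has an interval wholly below 0.

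Most far anchors had no end of a protein-coding gene near them, much as over all loops at such genes. Gene bodies and other kinds of gene were not checked there. For 77 of the estrus loops (72.6%) and 82 of the diestrus loops (78.8%), no end of a protein-coding gene lay within 5 kb of the other anchor, against 69.9% of all estrus and 70.2% of all diestrus loops at such genes. The genes named above at far anchors have an end inside the anchor itself, a narrower rule. Where the RefSeq table lists a start site (30 members), it was within 5 kb of the anchor for 60 of 72 loops in estrus and 63 of 73 in diestrus. In a loop with a gene end at each anchor only the second anchor was checked. The 120 kb estrus loop of Lef1 was therefore left out of the 60, though the Lef1 start site lies within 5 kb of its first anchor. The rule already asks for an end of the gene within 5 kb, so a high number is partly built in. The same share over all genes was not computed, so these numbers describe no trait of the Wnt genes. Among members with at least 3 loops, all loops ran to one side of the gene for 10 of 18 in estrus and 10 of 17 in diestrus, against 46.2% and 45.5% of all such genes.

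Other genes of the pathway, 38 in number and chosen by their role, were counted in the same way. A loop was listed for 27 of the 38 (background 55.7%), with 70 loops in estrus and 69 in diestrus. Of the 27, 9 had more in estrus (background 25.6%), 7 had more in diestrus (31.5%) and 11 had equal numbers (42.9%). At least 2 more loops in estrus were listed for 2 of the 27 (background 4.29%). These were Wnt8a, a ligand (2 in estrus, 0 in diestrus), and Bcl9l, a beta-catenin cofactor (4 in estrus, 2 in diestrus). The other way there were also 2 (background 7.11%). These were Dkk4, an inhibitor (0 in estrus, 2 in diestrus), and Ror1, a Wnt receptor kinase (4 in estrus, 7 in diestrus).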

How the data were processed

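Hi-C libraries were made from whole mouse uterus with the Arima kit, per the labels' protocols, 1 per stage. The submitters' processing notes name Juicer and mm10; the aligner, versions and caller settings were not given in these sources. The columns deposited are those of HiCCUPS, Juicer's loop caller. Observed contacts and merged pixels are raw counts from the authors, per the file headers. Contacts expected from 4 local neighbourhoods are a signal from the authors' caller on that same scale. The q-values are the authors', at most 0.0991 in estrus and 0.0955 in diestrus. Anchor positions are other deposited values (bases). Total library depth is not given; listed loops sum to 4153485 contacts in estrus and 4533525 in diestrus.

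Here loops were assigned to genes (either end, 5 kb), mutually nearest loops were paired where both anchors lay within 10 kb edge to edge, and strength (observed over donut-expected) was compared as a centred log2 ratio. Intervals at 95% are exact Poisson (contacts), exact conditional (ratios, taking expected contacts as exact), Clopper-Pearson (shares) and binomial order statistics (medians). Without molecular identifiers read pairs may repeat a molecule, so these cover counting error only, and those of shares and medians treat loops as independent. Gene positions and promoters are RefSeq GRCm38.p6, the assembly behind mm10, and all 44 members matched; 26 of the 35 with a loop have a listed promoter. No genome sequence was used. The scripts, in Python 3.11.15 with SciPy 1.17.1, were tested on simulated data.

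The members, gene lists and rules were chosen with earlier results of these data known. Single loops are described for Wnt4, Wnt7a, Wnt2, Wnt16, Axin2, Lgr5 and Lef1, for members with at least 3 loops in a stage and a difference of at least 2, for the loops with most contacts or strength per role, and for pairs past 1.5-fold. Other members, and the loops of Fzd1, are examples named after their values were seen. Alternatives were other gene distances, whole gene bodies, stricter q-values, a shortened diestrus list, a minimum of 20 contacts, other pairing distances and another expectation.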

Additional observations from a re-analysis of the deposited data

How the results depend on the processing

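No paired analysis was possible because there was 1 library per stage. Of the values recomputed for groups of genes, 189 were classed as unchanged, 13 as moved and 6 as changed in sign. For single genes the numbers were 70, 6 and 2. The unchanged class was wide and does not mean that values stayed close. Within 10 kb it held the ligands' loops in estrus at 47 in place of 34, and those of all members at 136 in place of 106. It also held the difference over all members within 10 kb, at 6 in place of 2. The small differences in loop number (estrus minus diestrus) depended most on the settings, and the cause was not tested beyond the settings' own construction. Over all members the difference of 2 became -2 with any base of the gene inside an anchor and -6 with the stricter q-values. For R-spondins and Lgr receptors the difference of 2 became -1 with gene ends inside an anchor only and -2 with the stricter q-values, and within 10 kb there were 26 loops in estrus and 23 in diestrus. For the nuclear genes the difference of -2 became 1 with ends inside an anchor only (10 loops in diestrus), 0 within 10 kb and 1 with the diestrus list shortened to the length of the estrus list. For the inhibitors the difference of -1 became 0 in 3 settings (ends inside only, any base, shortened list). With ends inside only, the epithelial ligands had 3 loops in estrus and 2 in diestrus, a difference of 1 in place of 0. The wider epithelial list, with a difference of -1, gave 0 with ends inside only and with the shortened list. Among single genes, Rspo2 became -1 with ends inside only and Lef1 became 1 within 10 kb. Pairs past 1.5-fold numbered 2 in place of 1 when strength used the highest of the 4 expectations. The ligands' excess in estrus (6) and the stromal ligands' (3) kept their sign in every setting tried, at 4 to 7 and 2 to 3. Each setting used the same loop lists, so a kept sign is no independent support. Wnt1 alone differed by 3 in the main setting. Wnt16 had a difference of 0 with ends inside only, with any base and with the stricter q-values. With 1 library per stage, the spread between animals is unknown, and loops with few contacts have wide counting intervals.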
